A study of Mus musculus with 12 samples.

Results

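A set of 10 genes of the acrosome and of sperm-egg binding was taken from the 22180 mouse genes that have a probe-set of their own on these arrays: Acr, Acrv1, Zpbp, Zpbp2, Spaca1, Spaca3, Spaca7, Izumo1, Spam1 and Fabp9. They were chosen by name, with earlier results of these data known, and are not all genes of this kind. The gene lists and the tests used below were chosen with the same knowledge. All 10 genes were found, each with 1 probe-set annotated to it alone. Izumo1 also has a probe-set that it shares with Rasip1, which was not used. The 4 groups were the corpus and the cauda epididymidis of mice called control (Dicer1fl/fl) or Dicer1 cKO (Defb41iCre/wt;Dicer1fl/fl), and each group had 3 arrays, which makes 12. Both genotypes are homozygous for the floxed Dicer1 allele on a mixed C57Bl/6N and SV129 background, and the cKO mice alone carry iCre, so that the iCre allele and the loss of Dicer1 cannot be told apart. No age is stated for these mice. From before puberty the Defb41 promoter drives iCre in principal cells, in the initial segment and caput alone, hence Dicer1 is removed upstream of the corpus and the cauda and not within them. The tissues of both sides of a mouse were pooled for each region, and the methods describe RNA of both regions from 3 control and 3 cKO mice, so that corpus and cauda arrays share mice. Which corpus array matches which cauda array is not given in the sources used here.

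The acrosome is a vesicle over the front of the sperm nucleus. It is assembled from the Golgi apparatus in the round spermatids of the testis, where its genes are transcribed, and its contents are released when the sperm meets the egg. Enzymes and matrix proteins of the acrosome act on the cumulus and the zona pellucida around the egg, and Izumo1 then binds its receptor on the egg surface before the membranes fuse. Sperm no longer transcribe nuclear genes but carry transcripts left over from the testis, and they pass through the corpus to be stored in the cauda. The epididymal wall makes some sperm-associated proteins too, Spam1 among them in the mouse. In RNA of whole tissue, fewer cells of a type and less RNA per cell cannot be told apart.

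The 250 bases before the start of 4 of these genes are shown because many spermatid genes are controlled by CREM, a factor that binds the cyclic AMP response element (CRE), and because the 4 include promoters with a full CRE, with a half-site and with neither. The sequences are from RefSeq on GRCm38.p6, 5′ to 3′ on the strand of the gene, with the CRE half-site TGACG, on either strand, in capitals. They lie at chr7:45621561-45621810 (plus strand) for Izumo1, chr11:98550847-98551096 (plus) for Zpbp2, chr11:11462420-11462669 (minus) for Zpbp and chr9:36692970-36693219 (plus) for Acrv1.
Izumo1: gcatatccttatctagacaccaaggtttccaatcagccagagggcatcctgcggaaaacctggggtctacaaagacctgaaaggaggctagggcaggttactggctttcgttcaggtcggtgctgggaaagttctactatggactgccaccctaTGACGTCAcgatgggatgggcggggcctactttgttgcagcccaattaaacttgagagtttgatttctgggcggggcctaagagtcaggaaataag
Zpbp2: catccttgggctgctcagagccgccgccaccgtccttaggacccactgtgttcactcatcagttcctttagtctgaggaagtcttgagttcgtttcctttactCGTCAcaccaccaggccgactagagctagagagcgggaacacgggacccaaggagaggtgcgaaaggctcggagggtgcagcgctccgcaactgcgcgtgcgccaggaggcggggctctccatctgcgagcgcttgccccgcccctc
Zpbp: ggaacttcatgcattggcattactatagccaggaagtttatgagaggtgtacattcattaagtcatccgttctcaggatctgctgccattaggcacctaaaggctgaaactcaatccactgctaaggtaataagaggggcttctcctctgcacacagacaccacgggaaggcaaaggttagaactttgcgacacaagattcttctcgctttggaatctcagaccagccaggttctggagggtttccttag
Acrv1: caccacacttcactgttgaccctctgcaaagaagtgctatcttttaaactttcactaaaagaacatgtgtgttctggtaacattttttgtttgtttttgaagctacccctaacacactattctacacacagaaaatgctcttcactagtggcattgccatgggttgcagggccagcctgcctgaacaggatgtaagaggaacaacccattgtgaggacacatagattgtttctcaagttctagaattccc
Promoters of 8 of the 10 genes were matched, those of Acr and Fabp9 were not. The full CRE (TGACGTCA, searched on both strands) was in 1 of the 8, Izumo1, where it lies 96 bases before the start, and in 1.62% of 27025 promoters of the same length. The half-site, which the full CRE contains, was in 4 of the 8 (Izumo1, Zpbp2, Spaca1 and Spaca3) and in 17.9% of all promoters. The letters TATAAA, searched on the strand of the gene, were in 0 of the 8 and in 8.12% of all. G and C made up 51.6% of the Izumo1 promoter, 62.4% of that of Zpbp2, 46.8% of that of Zpbp and 42.0% of that of Acrv1. These matches describe letters only, and no binding was measured.

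The arrays gave log2 intensities, in which a step of 1 is a doubling of signal. Array medians lay between 5.19 and 5.31, and arrays correlated at 0.970 to 0.985 within groups and at 0.957 to 0.984 between groups. Of 12 markers of the epididymal epithelium, 11 were above the median on all 12 arrays, among them the adhesion protein gene Epcam and the proton pump regulator Foxi1. The exception was the principal cell marker Cftr, below the median on all 12 arrays with group means of 4.07 to 4.45. The mean level of the 12 markers was 8.61 to 9.15 over the 12 arrays. Of the 10 acrosome genes, 4 (Spaca1, Spaca7, Izumo1 and Spam1) were below the median intensity on all 12 arrays, where background limits how large a change can appear. Acr was above it on 11 arrays, Fabp9 and Zpbp on 10, Zpbp2 on 7, and Acrv1 and Spaca3 on 6. For Acrv1 those were the 6 cauda arrays.

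**Figure D1:**
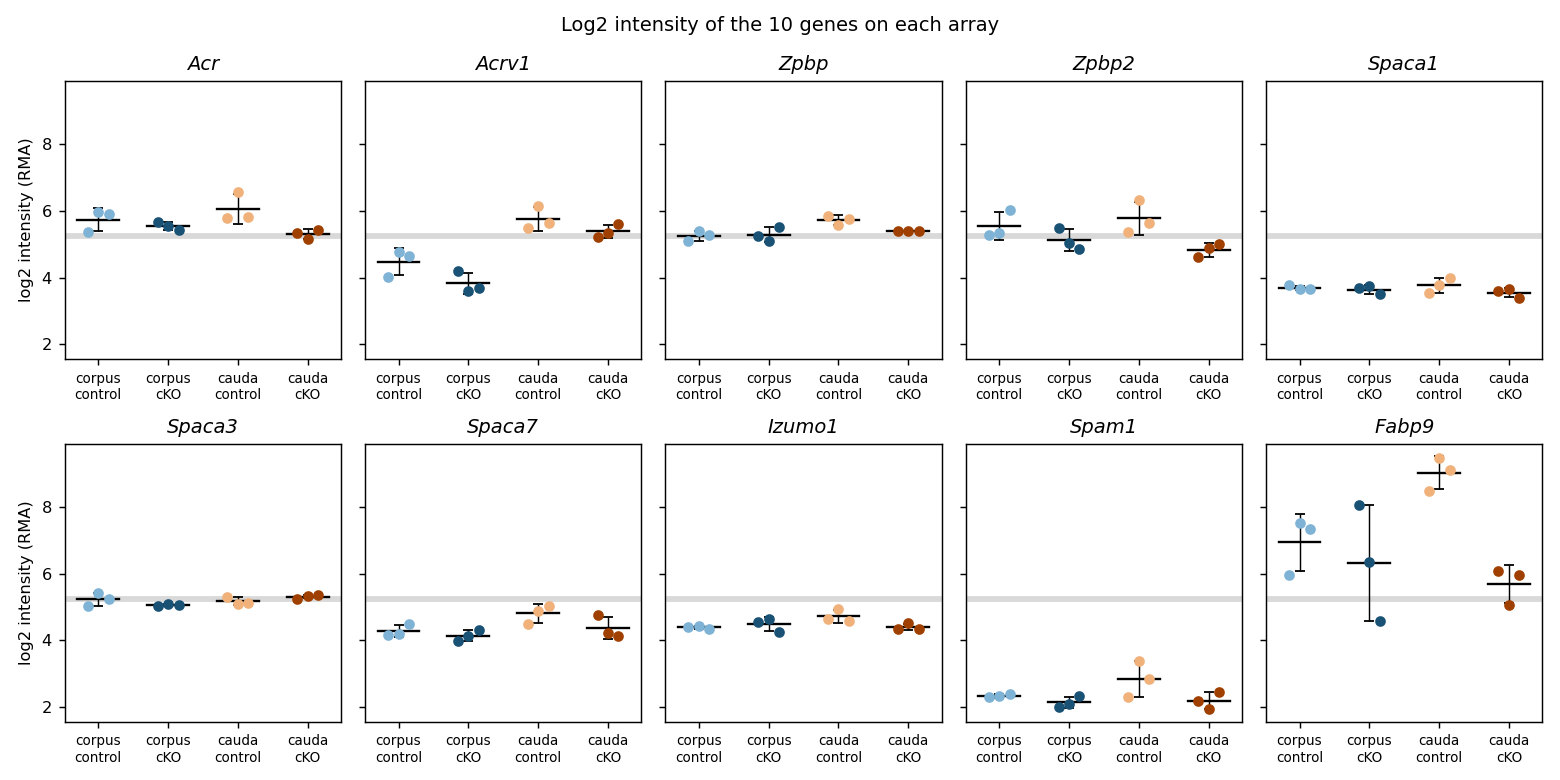
Log2 intensity (y axis) of each of the 10 genes on every array, by group (x axis). Points are arrays, horizontal lines are group means, bars are 1 SD (n = 3), and the grey band spans the medians of the 12 arrays. Fabp9 had 3 cauda control arrays at 8.49 to 9.46 and 3 cauda cKO arrays at 5.05 to 6.07.

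The first comparison asked whether these transcripts differed between cKO and control mice in the cauda. Estimates were lower in cKO mice for 9 of the 10 genes, with a median log2 fold change of -0.40 against 0.03 over all genes. Without Fabp9 the median was -0.37. After adjustment over all 41345 probe-sets, 0 of the 10 genes passed an adjusted p under 0.05 in limma, and 0% of all probe-sets did. At an unadjusted p under 0.05, 6 of the 10 were lower (Fabp9, Acr, Zpbp2, Spam1, Zpbp and Izumo1), against 3.83% of all probe-sets, and 0 were higher. The 3 cKO arrays lay wholly below the 3 control arrays for 5 genes, these 6 without Spam1, against 5.65% of all probe-sets. With 3 arrays against 3, an exact permutation test of a single gene cannot give a p below 0.1.

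Fabp9, a fatty acid binding protein of spermatids that is found in the head of mature sperm, differed most. In the cauda of control mice its log2 intensity was 8.49, 9.46 and 9.12 in replicates 1 to 3, and in the cauda of cKO mice it was 6.07, 5.05 and 5.97. Every cKO array was thus more than 2 log2 units below every control array. The group means were 9.03 ± 0.49 and 5.70 ± 0.562 (SD, n = 3). The signal was thus 10.1-fold lower, with a log2 fold change of -3.33 (standard error 0.72, 95% interval -4.92 to -1.74) and an adjusted p of 0.148 from limma. Fabp9 passed the adjusted threshold in a fit of only the 6 cauda arrays (adjusted p = 0.0447) and in fits without corpus cKO replicate 1 (0.0435) or 3 (0.0392).

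Among the genes of the acrosomal contents, Acr encodes acrosin, the serine protease stored in the vesicle as proacrosin. Its cauda values were 5.78, 6.58 and 5.82 in controls and 5.33, 5.16 and 5.44 in cKO mice, with no overlap between the genotypes. The cKO arrays were lower by a mean of -0.75 on the log2 scale (standard error 0.23, adjusted p = 0.403 from limma). Zpbp2, one of a pair of zona pellucida binding proteins of the acrosomal matrix, gave 5.36, 6.34 and 5.63 in controls and 4.61, 4.89 and 5.02 in cKO mice. These groups did not overlap either, and the log2 fold change was -0.93 (standard error 0.28, adjusted p = 0.406). Its partner Zpbp gave 5.84, 5.57 and 5.77 in controls and 5.41, 5.40 and 5.40 in cKO mice. That difference of -0.32 (standard error 0.14, adjusted p = 0.847) was smaller, again without overlap.

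Acrv1, the acrosomal vesicle antigen SP-10, was 5.49, 6.16 and 5.63 in the control cauda and 5.23, 5.33 and 5.61 in the cKO cauda. Its groups overlapped at the highest cKO array, and the log2 fold change of -0.37 had a 95% interval from -0.92 to 0.18. Spaca7, a protein released from the acrosome that helps to disperse the cumulus, was 4.50, 4.89 and 5.03 in controls and 4.76, 4.21 and 4.14 in cKO mice. The log2 fold change was -0.44 (95% interval -0.88 to 0.00261). Spaca3, a lysozyme-like acrosomal protein, was the exception in direction, with 5.31, 5.09 and 5.11 in controls against 5.25, 5.34 and 5.35 in cKO mice. This was a log2 fold change of 0.14 (95% interval -0.14 to 0.43), within overlapping groups.

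The probe-sets used for the surface and membrane proteins were below the array median throughout. Izumo1, which is required for fusion with the egg, was 4.64, 4.94 and 4.59 in the control cauda and 4.34, 4.51 and 4.35 in the cKO cauda. All cKO arrays were below all controls, by -0.32 on the log2 scale (standard error 0.14, adjusted p = 0.861). Spam1, the hyaluronidase PH-20 that loosens the cumulus, was 2.29, 3.37 and 2.83 in controls and 2.19, 1.94 and 2.44 in cKO mice. Control replicate 1 fell inside the range of the cKO arrays, and the log2 fold change was -0.64 (standard error 0.24, adjusted p = 0.63). Spaca1, a membrane protein needed for the acrosome to take shape, ranged from 3.53 to 3.98 in controls and from 3.40 to 3.66 in cKO mice, and the log2 fold change was -0.22 (95% interval -0.53 to 0.0944).

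In the corpus, the median log2 fold change between cKO and control mice was -0.18 over the 10 genes, against -0.03 over all genes, with 8 estimates lower and 2 higher. The cKO and control arrays were separate for 0 of the 10, against 5.99% of all probe-sets with lower and 5.85% with higher cKO arrays. None of the 10 passed the adjusted threshold, like 0% of all probe-sets. At an unadjusted p under 0.05, 1 of 10 was lower, Acrv1, against 4.09% of all probe-sets. Acrv1 was 4.01, 4.76 and 4.65 in the control corpus and 4.20, 3.59 and 3.69 in the cKO corpus. Control replicate 1 lay below cKO replicate 1, so the groups overlapped, and the log2 fold change was -0.65 (standard error 0.25, adjusted p = 0.497 from limma).

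Fabp9 was spread widely over the cKO corpus. Its control values were 5.95, 7.53 and 7.34, and its cKO values were 8.06, 6.35 and 4.58, so that the cKO arrays included both the highest and the lowest value of the region. The log2 fold change was -0.61 (95% interval -2.20 to 0.98). Zpbp2 was 5.27, 5.33 and 6.04 in controls and 5.50, 5.04 and 4.87 in cKO mice, and the log2 fold change was -0.41 (95% interval -1.03 to 0.22). Acr was 5.36, 5.96 and 5.91 in controls and 5.68, 5.54 and 5.42 in cKO mice, and the log2 fold change was -0.20 (95% interval -0.70 to 0.30). The estimates of the other 6 genes lay between -0.20 (Spam1) and 0.09 (Izumo1).

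**Figure D2:**
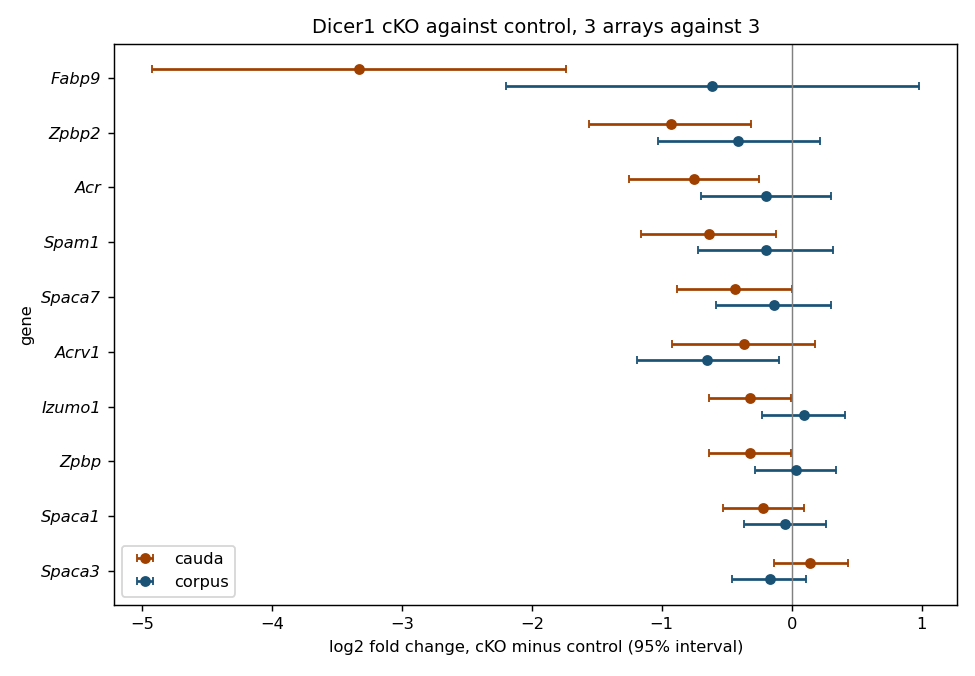
Log2 fold change, cKO minus control (x axis), of the 10 genes (y axis) in the cauda and in the corpus, with 95% intervals from limma (3 arrays against 3). The cauda interval of Fabp9 runs from -4.92 to -1.74, and that of Spaca3 spans 0.

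Whether the effect of genotype differed between the regions was tested directly, as the corpus effect minus the cauda effect. The difference was positive for Fabp9 by 2.72 on the log2 scale (standard error 1.02, 95% interval 0.47 to 4.97), that is, the fold change was more negative in the cauda, but the adjusted p was 0.738. Fabp9 was the 1 gene of the 10 with an unadjusted p under 0.05, against 3.44% of all probe-sets in that direction, and 0 of 10 genes and 0% of probe-sets passed the adjusted threshold. For Izumo1 the difference was 0.41 (95% interval -0.0345 to 0.86), for Acr 0.55 (95% interval -0.15 to 1.26) and for Zpbp2 0.53 (95% interval -0.36 to 1.41). The 2 genes with a negative difference were Acrv1, at -0.28 (95% interval -1.05 to 0.50), and Spaca3, at -0.32 (95% interval -0.72 to 0.0849).

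The regions were then compared within each genotype. In control mice Acrv1 rose from the corpus to the cauda, by 1.29 on the log2 scale (standard error 0.25) or 2.44-fold, with an adjusted p of 0.0162 from limma. All 3 cauda arrays (5.49 to 6.16) exceeded all 3 corpus arrays (4.01 to 4.76). It was the 1 gene of the 10 that passed the adjusted threshold, which 3.52% of all probe-sets passed in either direction and 1.77% upwards. This call was lost in several other settings, among them a fit of only the 6 control arrays (adjusted p = 0.0553) and fits without corpus control replicate 1 (0.0586) or cauda control replicate 2 (0.0675).

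At an unadjusted p under 0.05, 5 of the 10 genes were higher in the control cauda (Acrv1, Fabp9, Zpbp, Spaca7 and Izumo1), against 8.03% of all probe-sets, and the same 5 had arrays that did not overlap, against 10.2%. In controls Fabp9 averaged 6.94 ± 0.859 in corpus RNA and 9.03 ± 0.49 in cauda RNA (SD, n = 3), a log2 fold change of 2.09 (standard error 0.72) with an adjusted p of 0.174. Zpbp was 5.10, 5.39 and 5.28 in the corpus and 5.84, 5.57 and 5.77 in the cauda, and the log2 difference was 0.47 (standard error 0.14, adjusted p = 0.113). Spaca7 gave 0.53 (95% interval 0.0885 to 0.97) and Izumo1 0.33 (95% interval 0.0129 to 0.65). Over the 10 genes the median was 0.40.

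In cKO mice Acrv1 rose again towards the cauda, by 1.56 on the log2 scale (standard error 0.25) or 2.95-fold (adjusted p = 0.00597 from limma). Its cauda arrays lay at 5.23 to 5.61 and its corpus arrays at 3.59 to 4.20. Of all probe-sets, 2.69% passed this threshold. Acrv1 was also the 1 gene of the 10 that was higher at an unadjusted p under 0.05, against 7.01% of all probe-sets, and the median of the 10 was -0.02. Fabp9 was 6.33 ± 1.74 in the cKO corpus and 5.70 ± 0.562 in the cKO cauda (SD, n = 3), a log2 fold change of -0.63 (95% interval -2.23 to 0.96). Spaca3, at 5.02 to 5.08 in the corpus and 5.25 to 5.35 in the cauda, had separate groups with a log2 fold change of 0.26 (95% interval -0.0226 to 0.54). Acrv1 and Spaca3 were the 2 genes of the 10 with cauda arrays wholly above the corpus arrays, against 4030 of all 41345 probe-sets. These regional comparisons share their arrays with the comparisons of genotype, so they are not separate evidence.

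**Figure D3:**
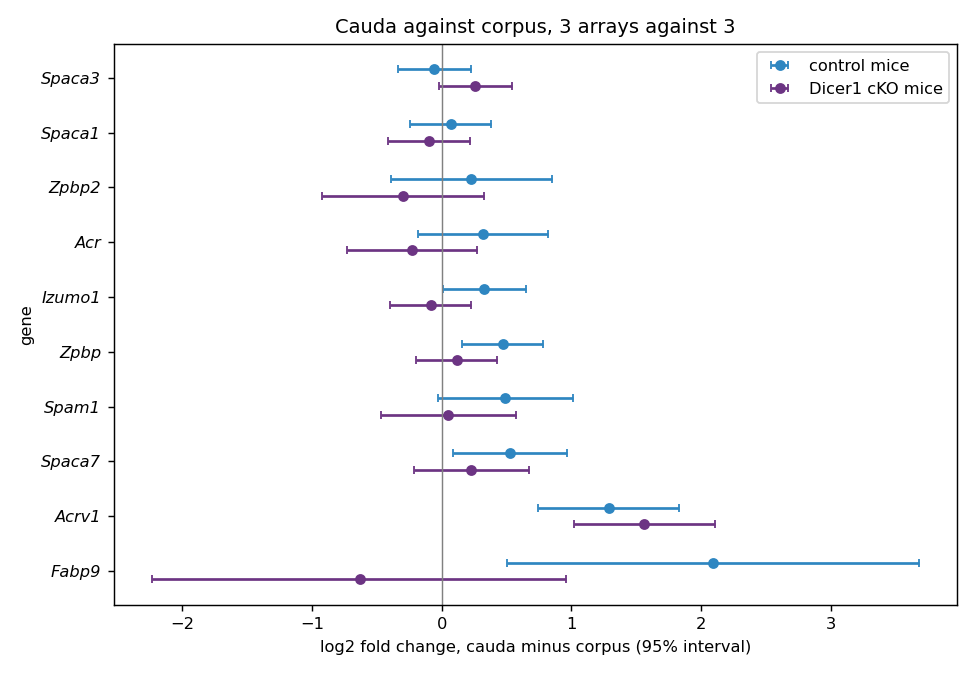
Log2 fold change, cauda minus corpus (x axis), of the 10 genes (y axis) in control and in cKO mice, with 95% intervals from limma (3 arrays against 3). Acrv1 lay at 1.29 and 1.56 in the 2 genotypes, Fabp9 at 2.09 in controls and -0.63 in cKO mice.

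The order of the groups was not the same for all genes. For Fabp9 the cauda control group (9.03) stood apart from the corpus control (6.94), the corpus cKO (6.33) and the cauda cKO (5.70) groups, and arrays of these 3 groups overlapped. Acr and Zpbp2 had the same order as Fabp9, with means of 6.06, 5.74, 5.55 and 5.31 for Acr and 5.77, 5.55, 5.14 and 4.84 for Zpbp2, but neighbouring groups overlapped in both. Acrv1 was ordered by region instead, with means of 5.76 and 5.39 in the cauda (control, then cKO) and of 4.47 and 3.83 in the corpus.

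Over the 12 arrays Acr, Zpbp2, Fabp9 and Spam1 varied most alike, with Pearson correlations of 0.62 to 0.88 between pairs. Once the group means had been taken off, these pairs correlated at 0.09 (Spam1 and Fabp9) to 0.74 (Acr and Zpbp2, 0.88 over the arrays). Acr and Acrv1 correlated at 0.42 over the arrays and at 0.88 within groups. Spaca3 followed the others least, at -0.48 to 0.47. Of all 45 pairs, 37 had a positive correlation and the median was 0.46, or 0.13 within groups. The 12 arrays share groups and hybridisation, and the correlations are given as a description.

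**Figure D4:**
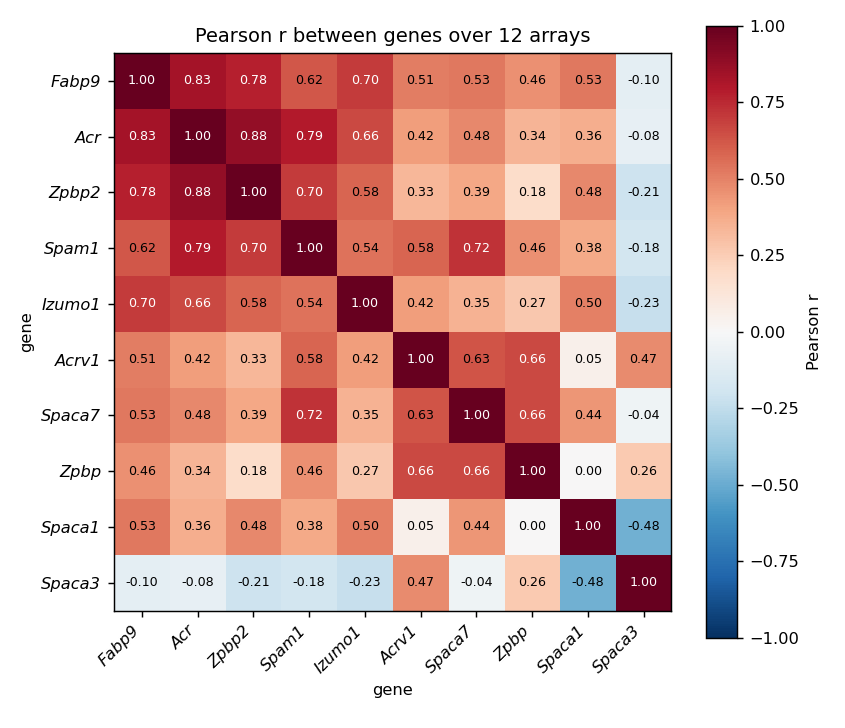
Pearson correlation between each pair of the 10 genes over the 12 arrays (both axes are genes, the colour and the number in each cell are r). Acr and Zpbp2 are at 0.88, and Spaca3 and Spaca1 at -0.48.

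The genes whose profile over the 12 arrays was most like the mean of the 10, each first centred on its own mean, were Klhl10 and Hk1 (r = 0.97 for both), Tcfl5 (r = 0.968), Smim24 (r = 0.962), Stard6 (r = 0.96) and BC051142 (r = 0.957). Their cKO minus control values in the cauda, in that order, were -1.44, -0.78, -0.76, -1.83, -2.37 and -1.52 on the log2 scale, with adjusted p-values of 0.148 to 0.306. The profile that chose them includes these cauda arrays, so these values are a description. Klhl10 is an adaptor for protein degradation in spermatids, Tcfl5 a transcription factor of male germ cells, and Hk1 a hexokinase with a form particular to sperm. Fabp9, with the largest SD over the 12 arrays (1.58, against 0.142 to 0.841 for the other 9), weighs most in that mean profile.

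A wider list of 38 other genes of the acrosome, the sperm head and sperm-egg fusion had 37 measured members. In the cauda 0 of the 37 passed the adjusted threshold, 15 were lower and 0 higher at an unadjusted p under 0.05, against 3.83% and 1.83% of all probe-sets, and 34 estimates were below 0, with a median of -0.44. The smallest p-values belonged to Clgn, a chaperone for sperm surface proteins, at -1.44 (standard error 0.33, adjusted p = 0.167), to Izumo3, a relative of Izumo1, at -1.11 (standard error 0.26, adjusted p = 0.177), to Cylc1, a cylicin of the perinuclear theca, at -0.74 (standard error 0.17, adjusted p = 0.185), and to Actl9, an actin-like protein of the sperm head, at -1.59 (standard error 0.38, adjusted p = 0.196). In the corpus 2 of the 37 were lower and 1 higher at an unadjusted p under 0.05, against 4.09% and 4.26% of all probe-sets, with a median of -0.07.

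A list of 22 transcripts of spermatids and sperm that are not acrosomal had 21 measured members. In the cauda 20 had cKO arrays wholly below the controls, against 5.65% of all probe-sets, and 18 were lower at an unadjusted p under 0.05, against 3.83%. None of the 21 passed the adjusted threshold, and the median was -2.60. The exception was Odf1, at 0.03, a gene with 2 probe-sets of its own, of which only the brighter was used. The smallest p-values were those of the kinase gene Tssk6 at -1.70, the nuclear protein genes Tnp1 at -2.90 and Prm1 at -2.60, and the tail protein gene Odf2 at -1.33, with adjusted p-values of 0.143 to 0.148. Summed on the linear scale, the list gave 10400 to 16900 in the control cauda and 5000 to 5740 in the cKO cauda, and Odf1 made up 3720 to 3950 of this on every cauda array. Without Odf1 the sums were 6660 to 13100 and 1070 to 1790. In the corpus they were then 1760 to 4540 in controls and 857 to 5650 in cKO mice (with Odf1, 5620 to 9020 and 5680 to 10900). The median log2 fold change of the list there was -0.44. At an unadjusted p under 0.05 there were 0 genes, against 4.09% of all probe-sets lower and 4.26% higher.

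Array by array, the mean log2 level of this list was 7.84, 8.68 and 8.26 in the control cauda and 6.28, 5.86 and 6.41 in the cKO cauda, and in the cKO corpus it was 7.77, 6.62 and 5.49. Fabp9 had its highest and lowest cKO corpus values on the same arrays as the list, replicates 1 and 3. The mean of the epithelial markers differed little in the cauda, at 8.77 to 8.95 in controls and 8.82 to 8.92 in cKO mice. Of the 12, 0 had an unadjusted p under 0.05, against 3.83% of all probe-sets lower and 1.83% higher. Single markers ranged from -0.43 (Atp6v0d2) to 0.40 (Trp63) on the log2 scale. The cKO arrays lay wholly below the controls for 2 of the 12, Atp6v1b1 and Atp6v1g3, against 5.65% of all probe-sets. They lay wholly above for 2 of the 12, Aqp9 and Trp63, against 2120 of all 41345 probe-sets. Macrophage markers, with 6 of 7 higher in the cKO corpus at an unadjusted p under 0.05 (median 0.74), against 4.26% of all probe-sets, had 0 of 7 in the cauda, against 1.83%. The part of sperm content in the values of the 10 genes was not tested.

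**Figure D5:**
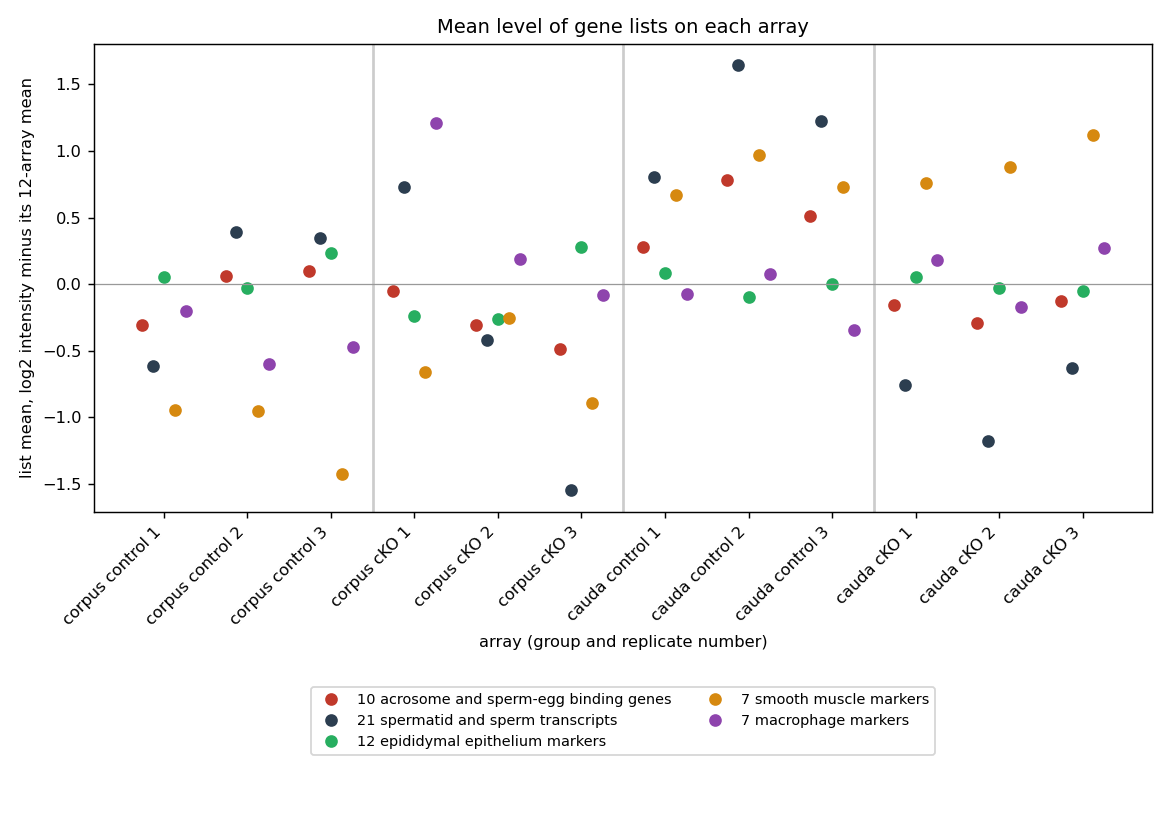
Mean log2 intensity of 5 gene lists on each array (x axis, group and replicate), as the difference from the mean of the list over the 12 arrays (y axis). The spermatid and sperm list and the 10 genes are higher on the 3 cauda control arrays than on the 3 cauda cKO arrays. The mean of the epithelial markers differs little between these groups.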

How the data were processed

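Total RNA of the corpus and cauda was hybridised to Affymetrix Mouse Gene 2.0 ST arrays, as the methods state, although the labels describe the labelling used for miRNA arrays. The authors processed the scans by RMA (robust multi-array averaging) with Partek software and deposited log2 intensities, 1 per probe-set and array. These were used unchanged. RMA is what the submitters' processing notes name, with no version given. Of 41345 probe-sets, 23521 carry 1 gene symbol in the platform annotation, 1820 several and 16004 none here. Of the probe-sets with 1 symbol, 23328 had a gene identifier found in the RefSeq table of GRCm38.p6, and 0 symbols differed. A gene was represented by the probe-set with the highest mean over 12 arrays among those annotated to it alone. Groups and replicate numbers came from the labels.

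The means of the 4 groups were fitted to all 12 arrays with limma 3.58.1 in R 4.3.3 (8 residual and 3.18 prior degrees of freedom, prior variance 0.0515). Two-sided p-values were corrected for 41345 probe-sets (Benjamini-Hochberg), and a gene was called at an adjusted p under 0.05. The methods describe pairwise ANOVA contrasts, which correspond to the alternative with each probe-set's own variance. The script was tested on simulated data. The number of arrays limits the precision.

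The 10 genes, the gene lists and the tests were chosen with earlier results of these data known. The genes named are all 10, the 4 with the smallest p in the cauda from the wider acrosome list and from the spermatid and sperm list, the 6 most alike in profile, and examples from the other lists, which were chosen after their values were seen. Other lists covered earlier germ cells, testis somatic cells, epididymal epithelium, smooth muscle and macrophages. Promoters were the 250 bases before each start in RefSeq. Alternatives were the own variance of each probe-set, a filter on mean intensity, only probe-sets with 1 symbol, quantile normalization, centring on array medians, fits restricted to the 6 arrays of a comparison, the replicate number as a fixed or random block (statmod 1.5.0) and leaving out each array in turn.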

Additional observations from a re-analysis of the deposited data

How the results depend on the processing

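Each of the 10 genes kept the direction of its cauda difference between genotypes under all alternatives that gave it a value, but sizes moved. With single arrays left out the log2 fold change ranged over -0.51 to -0.17 for Acrv1, -0.91 to -0.37 for Spam1, -0.89 to -0.49 for Acr (the smallest size of these 3 without cauda control replicate 2), -0.34 to -0.11 for Spaca1 and -3.60 to -3.01 for Fabp9. The count at an unadjusted p under 0.05 in the cauda was 4 to 6 with arrays left out and 4 to 7 under the other alternatives. The median cauda log2 fold change was -0.84 when only probe-sets above the median mean intensity were kept. This filter leaves out the dim genes and keeps 4 of the 10, Acr, Zpbp, Zpbp2 and Fabp9. Counts under it are thus out of 4, and in the cauda the unadjusted count was 4. The count of genes past the adjusted threshold in the cauda was 1 in place of 0 with only the 6 cauda arrays, where Fabp9 had an adjusted p of 0.0447, and was 0 to 1 when single arrays were left out (Fabp9 at 0.0435 and 0.0392 without replicates 1 and 3 of the cKO corpus). The corpus count at an unadjusted p under 0.05 was 0 under the intensity filter and 0 to 2 with arrays left out, and the count for the difference between regions was 0 to 2 with arrays left out.

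In cauda against corpus of controls, the count past the adjusted threshold was 0 with each probe-set's own variance (adjusted p of Acrv1 0.053). It was 0 with only the 6 arrays and 0 to 1 with arrays left out. Under the intensity filter, which Acrv1 does not pass, it was 0 of 4. The unadjusted count in this comparison was 2 of 4 under the filter and 2 to 6 with arrays left out. In cKO mice the adjusted count was 0 and the unadjusted count 0 under the filter, which Acrv1 does not pass, while the unadjusted count was 2 with each probe-set's own variance and 1 to 2 with arrays left out, and the median was -0.27 under the filter. The adjusted p of Acrv1 in cKO mice was 0.00432 to 0.0352 with arrays left out.

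The sign of some small values turned with the array left out. In the corpus, cKO minus control ranged over -0.0863 to 0.13 for Zpbp, -0.10 to 0.0161 for Spaca1 and -1.47 to 0.27 for Fabp9, whose 0.27 came without corpus cKO replicate 3. Cauda minus corpus in controls ranged over -0.16 to 0.0366 for Spaca3, -0.0529 to 0.48 for Zpbp2 and -0.0392 to 0.19 for Spaca1, and in cKO mice over -0.0733 to 0.17 for Spam1, -1.51 to 0.23 for Fabp9 and -0.20 to 0.00128 for Izumo1. Quantile normalization turned Spam1 in the latter comparison, to -0.00293. The cause of these changes was not tested.

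Deviations from group means of arrays with the same replicate number correlated at -0.096 to 0.208 over 18 pairs, 3 of them over 0.1. The highest, 0.208 and 0.139, joined corpus control with corpus cKO arrays, which are from different mice. Pairs of corpus with cauda within a genotype, which alone could share a mouse, lay at -0.038 to 0.11. The numbers were not used to pair arrays. Whether a number marks 1 mouse in both regions is not known. With the replicate number as a fixed block, the count at an unadjusted p under 0.05 was 5 in the cauda in place of 6, and 2 for the difference between regions in place of 1. Using every probe-set annotated to a gene alone gave no further value, as each of the 10 genes has 1.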

Other observations

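Of 12 genes of earlier germ cells 11 were measured, and 7 of these were below the median intensity on all 12 arrays. In the cauda 7 estimates were lower and 4 higher in cKO mice, with a median of -0.09. At an unadjusted p under 0.05, 3 were lower, against 3.83% of all probe-sets, and 0 passed an adjusted p under 0.05 in limma. The 3 were Mael, a piRNA pathway gene that spermatids also express, at -2.65 on the log2 scale (standard error 0.72, adjusted p = 0.278), the germ cell helicase gene Ddx4 at -1.05 (standard error 0.23, adjusted p = 0.148) and the synaptonemal complex gene Sycp2 at -0.38 (standard error 0.17, adjusted p = 0.875). The 4 with higher estimates, at 0.20 to 0.32, were Stra8, Sycp1, Zbtb16 and Dmc1. Of 10 genes of testis somatic cells 9 were measured. In the cauda 0 had an unadjusted p under 0.05, against 3.83% of all probe-sets lower and 1.83% higher.

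Smooth muscle markers separated the regions, with all 7 higher in the cauda than in the corpus of controls at an adjusted p under 0.05, against 1.77% of all probe-sets. In the cKO corpus 4 of the 7 were higher than in controls at an unadjusted p under 0.05, against 4.26% of all probe-sets. Their list had a median of 0.49 there. In the cKO cauda 0 of the 7 were higher at this threshold, against 1.83%. In the wider acrosome list, Llcfc1, which sperm need for fusion with the egg, was the 1 gene of 37 that passed the adjusted threshold in cauda against corpus of controls, at 2.05 on the log2 scale (adjusted p = 0.00219). Among the 10 genes the 1 that passed there was Acrv1.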
